A study of Mus musculus with 32 samples.

Results

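Epcam+ cells from mouse lung organoid cultures were compared after treatment with the 2 fractions of 1 fibroblast secretome, extracellular vesicles (EVs) and soluble factors (SFs). The comparison covered 8 of 32 RNA-seq libraries of the series, namely the EV-treated and the SF-treated Epcam+ library of each of 4 mice, chosen by their labels. Epcam+ cells negative for CD31 and CD45 had been taken from the lungs of C57BL/6J mice of 8 to 14 weeks and grown in Matrigel with CCL206 cells, lung fibroblasts of a mouse line that had been treated with mitomycin C to stop division. The cultures received vehicle, EVs (1000000000 particles/mL), SFs (30 µg/mL of protein) or recombinant osteoglycin (OGN, 10 µg/mL) for 72 h, and the Epcam+ cells were then recovered with CD326 microbeads. Both fractions came from medium conditioned by MRC5, a human lung fibroblast line, and were separated by size exclusion chromatography, EVs in the early and SFs in the later eluate. The medium and then the pooled fractions were concentrated on 100 kDa filters, so both hold what these filters retained. The EV dose was set by particle number and the SF dose by protein mass, so the doses differ in kind and were not matched. All groups share the CCL206 cells, the matrix and the medium, and each mouse contributed to all 4 treatments.

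EVs are membrane-bound particles that carry proteins, lipids and RNA and are taken up by endocytosis or act at the cell surface. The soluble fraction holds free growth factors, cytokines and matrix proteins that act on receptors. By the paper's proteomics, most proteins found in all EV replicates were also found in the SFs, OGN among them. Most Epcam+ cells of the distal lung are alveolar type (AT) 2 cells, which make surfactant, a lipid and protein film that keeps alveoli open, and which divide and give rise to AT1 cells during repair. Airway secretory, ciliated and basal cells also carry Epcam. The comparison asked how far the response of the epithelium differed between the vesicle fraction and the soluble fraction of the secretome as prepared.

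Reads were counted per gene by the authors, and the 8 libraries held between 1805914 (SFs, mouse 2) and 17675454 counts (EVs, mouse 4). Levels are given here as CPM (counts per 1000000 of the library size, scaled by TMM), and differences as log2 of EVs over SFs, so that negative values mean lower levels with EVs. They were tested with edgeR's quasi-likelihood F test over the 16 Epcam+ libraries with treatment and mouse in the model, p was adjusted by Benjamini-Hochberg over the 11716 genes tested, and an adjusted p under 0.05 was called. Epcam itself stood at 267 ± 40.7 CPM with EVs and 278 ± 35.2 CPM with SFs (SD, n = 4 each). All 10 AT2 markers were present in the counts, as were 9 of 10 for fibroblasts, 9 of 12 for AT1 cells and 9 of 12 for basal cells. The count was 0 of 10 for lymphocytes, 1 of 10 for endothelial cells and 3 of 12 for macrophages. Only genes counted at least once in each of the 32 libraries, those of CCL206 cells included, are in the table. Presence in it thus does not show which cells the Epcam+ libraries held, and absence from it does not show that a gene was silent in these cells. The library of mouse 2 treated with SFs, the shallowest, and that of mouse 2 treated with EVs stood apart from the rest on the first and second principal component, which held 34.3% and 20.3% of the variance. In bulk RNA, fewer cells of a type and less RNA per cell cannot be told apart.

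EV-treated and SF-treated Epcam+ cells differed in few genes by the test. Of the 11716 genes, 3 were called (0.0256%), 1 higher (0.00854%) and 2 lower with EVs (0.0171%). An unadjusted p under 0.05 was found for 586 (5%), 271 of them higher (2.31%) and 315 lower (2.69%). The 4 EV values did not overlap the 4 SF values in 349 genes (2.98%), and 50.7% of all genes had a difference below 0. The median absolute log2 difference was 0.10 and the median standard error (SE) 0.13. For 8854 genes (75.6%) the 95% interval of the difference lay within 1.5-fold either way, and for 10756 (91.8%) within 2-fold, so larger differences are outside the interval for most genes. Over the 8858 genes with at least 10 CPM in all 8 libraries, the fraction given took 14.02% of the summed squares. That is about the share of 14.3% that 1 of 7 degrees of freedom would hold if each held as much. Mouse took 52.5% and the residual 33.5%, where the 3 degrees of freedom of each would hold 42.9% at equal shares. Per degree of freedom the fraction thus held more than the residual and less than mouse. In the same fit 104 genes were called for EVs against vehicle (0.888%; 41 lower, 0.35%) and 27 for SFs against vehicle (0.23%), 2 comparisons that share the vehicle-treated libraries.

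**Figure D1:**
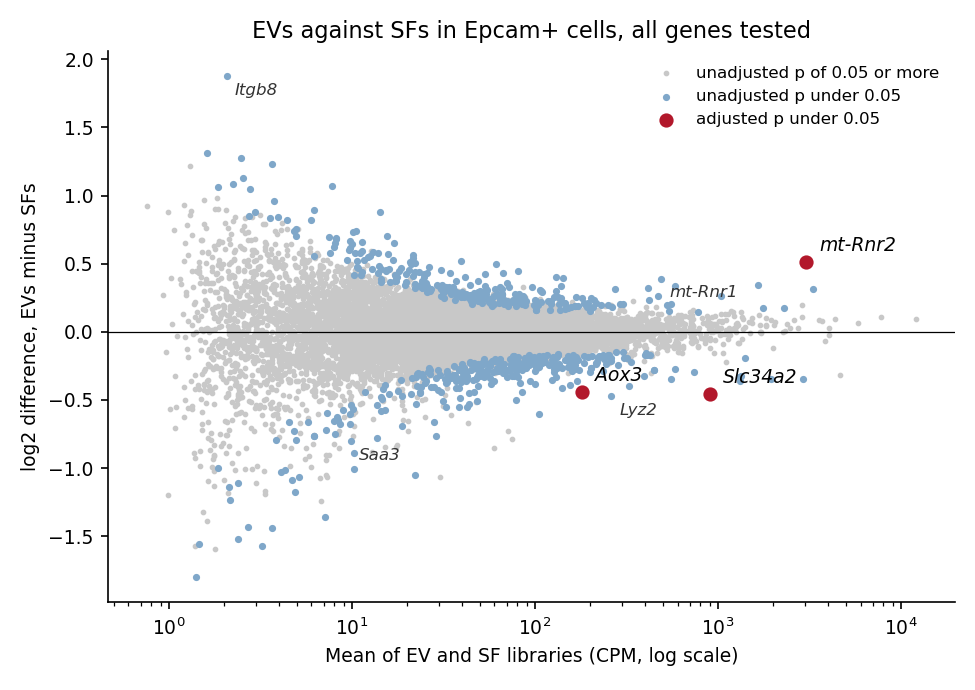
The log2 difference of EVs minus SFs (y axis) is plotted against the mean level of the EV and SF libraries in CPM on a log scale (x axis), with 1 point for each of the 11716 genes tested. The 3 called genes are mt-Rnr2 above 0 and Slc34a2 and Aox3 below 0, and differences beyond 1 on the log2 scale (49 genes) belong to genes of low level.

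Slc34a2, the apical sodium-phosphate cotransporter of AT2 cells that takes up phosphate freed by surfactant breakdown, was lower with EVs. It stood at 863, 726, 702 and 750 CPM with EVs in mice 1 to 4 and at 1067, 907, 944 and 1258 CPM with SFs. All EV values lay below all SF values, and the lowest ratio was that of mouse 4. The fitted log2 difference was -0.45 (SE 0.075, adjusted p = 0.0315), a level 1.37-fold higher with SFs. With vehicle Slc34a2 had 945 ± 88.7 CPM (SD, n = 4), which lay between both fractions, and only EVs differed from it by the test (log2 -0.31, adjusted p = 0.0473, against 0.14 and 0.681 with SFs). That call against vehicle was made in 5 of 13 alternatives of the fit, with a log2 difference between -0.35 and -0.28 in all of them.

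Aox3, an aldehyde oxidase that oxidizes aldehydes and nitrogen heterocycles, was the other lower gene. It had 154, 162, 139 and 161 CPM with EVs and 215, 193, 192 and 233 CPM with SFs, again without overlap. The log2 difference was -0.44 (SE 0.0757, adjusted p = 0.0332). The SF-treated libraries were at the level of vehicle (210.8 ± 26.2 CPM, log2 -0.01, adjusted p = 0.99), and the EV-treated libraries were below it (log2 -0.45, adjusted p = 0.00406, called in 9 of 13 alternatives).

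The gene called higher with EVs was mt-Rnr2, the large ribosomal RNA of the mitochondrion (16S), encoded by the mitochondrial genome at bases 1094 to 2675. It had 4321, 3068, 3221 and 3679 CPM with EVs against 2900, 2094, 2461 and 2535 CPM with SFs, and the groups did not overlap. The log2 difference was 0.51 (SE 0.0856, adjusted p = 0.0315). Vehicle (3028 ± 232 CPM) lay between them, and neither fraction differed from vehicle by the test (log2 0.23 with EVs, adjusted p = 0.302, and -0.28 with SFs, adjusted p = 0.338). The paper states that ribosomal content was assessed as a check of library preparation. The part of library preparation in the levels of mitochondrial ribosomal RNA was not tested.

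**Figure D2:**
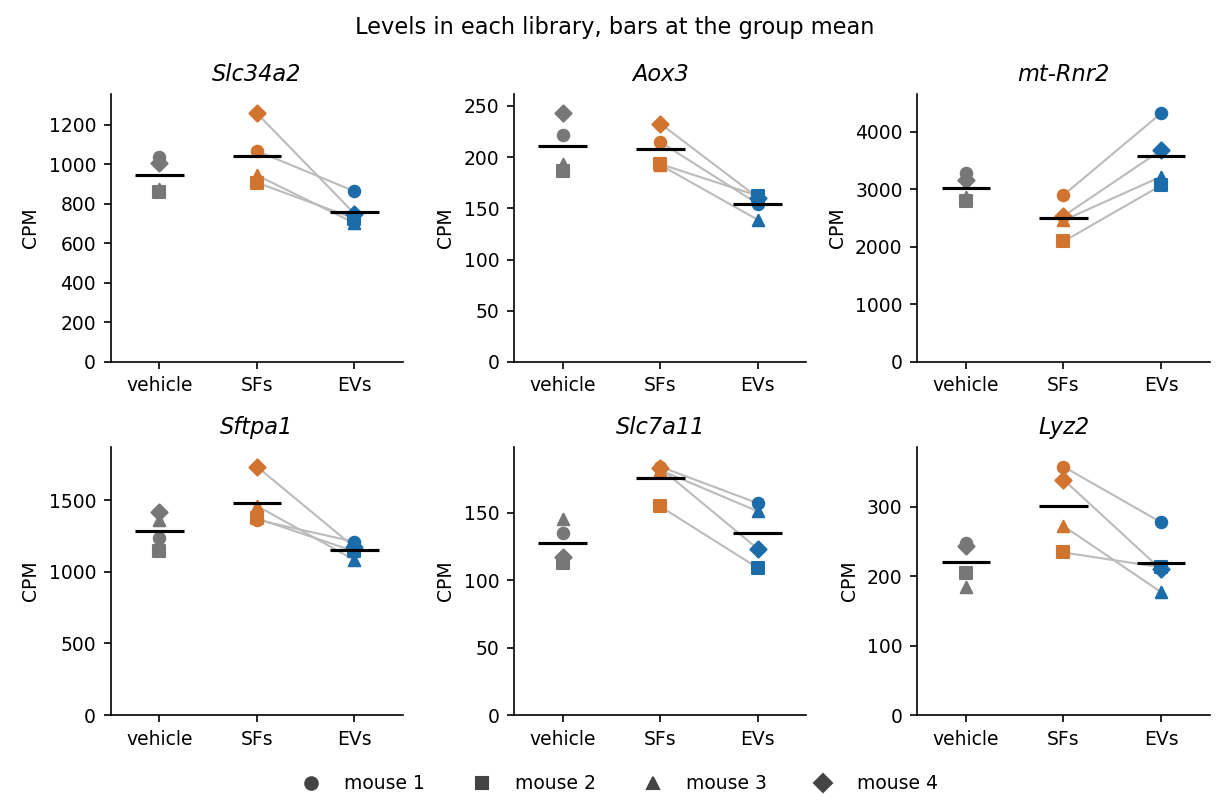
Levels of 6 genes in CPM (y axis, from 0) are shown for the vehicle, SF and EV libraries, with 1 symbol per mouse, a bar at the group mean and a grey line joining the SF and EV library of a mouse. Slc34a2, Aox3 and Sftpa1 have EV values below all SF values, mt-Rnr2 has EV values above all SF values, and Slc7a11 and Lyz2 overlap between the groups.

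The sizes of these 3 differences changed little with the processing, and the calls changed with the model and with single mice. Over 15 alternatives Slc34a2 stood between -0.50 and -0.35, Aox3 between -0.50 and -0.41 and mt-Rnr2 between 0.47 and 0.55, and they were called in 8, 7 and 7 of them. None of the 3 was called without mouse in the model (adjusted p = 0.561 for each), nor with mouse 1, mouse 3 or mouse 4 left out, and without mouse 2 Aox3 was called (adjusted p = 0.0448) but Slc34a2 (0.115) and mt-Rnr2 (0.186) were not. Without the SF library of mouse 2 alone, Slc34a2 was called (0.0409) and Aox3 (0.0574) and mt-Rnr2 (0.142) were not, and without the EV library of mouse 2 all 3 were (0.0478 each). With DESeq2's Wald test on the same 16 libraries 25 genes were called, 3 higher and 22 lower, and with limma's voom 17 were, 2 higher and 15 lower. Both sets hold Slc34a2, Aox3 and mt-Rnr2, and in both the genes lower with EVs include Lyz2, Slc7a11, Gclc, Soat1, Cd36, Scd1, Sftpa1, Cxcl15, Lgi3 and Spink5.

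The promoters of both called nuclear genes and of Sftpa1, the AT2 marker with the next smallest p, are shown so that the sequence at their start sites can be read beside their values. They run from 250 bases before to 50 bases after the first start site listed by RefSeq (GRCm38.p6), so that they end within the first exon or just beyond it. Capitals mark matches, on either strand, to TTGCNNAA, the site of C/EBP factors, or to CAAGTG, a site of NKX2-1, both of which are transcription factors of AT2 cells. The promoters lie at chr5:53049103-53049402 on the plus strand (Slc34a2), chr1:58112886-58113185 on the plus strand (Aox3) and chr14:41131538-41131837 on the plus strand (Sftpa1).
Slc34a2: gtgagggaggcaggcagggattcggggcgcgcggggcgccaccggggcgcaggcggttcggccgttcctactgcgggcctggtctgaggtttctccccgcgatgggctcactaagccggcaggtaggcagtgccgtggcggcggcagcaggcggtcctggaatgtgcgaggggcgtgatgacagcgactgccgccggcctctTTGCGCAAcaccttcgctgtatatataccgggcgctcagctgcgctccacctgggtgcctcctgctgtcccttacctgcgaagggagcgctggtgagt
Aox3: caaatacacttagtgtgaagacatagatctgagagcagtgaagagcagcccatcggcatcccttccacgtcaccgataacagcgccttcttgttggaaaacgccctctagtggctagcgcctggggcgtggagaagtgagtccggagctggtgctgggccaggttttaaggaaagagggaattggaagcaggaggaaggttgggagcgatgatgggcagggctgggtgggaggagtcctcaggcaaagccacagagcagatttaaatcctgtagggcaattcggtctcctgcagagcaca
Sftpa1: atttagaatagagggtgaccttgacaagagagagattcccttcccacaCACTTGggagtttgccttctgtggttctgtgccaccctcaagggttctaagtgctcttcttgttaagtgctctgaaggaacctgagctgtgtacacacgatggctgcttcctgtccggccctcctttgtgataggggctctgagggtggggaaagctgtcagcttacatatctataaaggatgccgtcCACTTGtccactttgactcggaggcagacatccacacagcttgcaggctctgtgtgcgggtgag

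The Slc34a2 window holds 1 match to TTGCNNAA, which starts 48 bases before the start site. The Sftpa1 window holds 2 matches to CAAGTG, read on the other strand as CACTTG, 202 and 14 bases before the start site, and the Aox3 window holds neither sequence. The C/EBP letters occur in 10.8% of all 27025 promoters of this length and in 8.17% of the 9119 of genes tested, and the NKX2-1 letters in 13.5% and 10.3%. Of the 6 AT2 markers with a promoter entry, 1 holds the former and 1 the latter. The matches overlap no other match.

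Surfactant and other AT2 genes were at lower levels with EVs than with SFs. Of the 10 AT2 markers, 9 had a log2 difference below 0, with a median of -0.26 over the list against -0.00209 over all genes, and 7 were lower in all 4 mice (all genes, 8.31%). Slc34a2 passed the test, and 5 had an unadjusted p under 0.05. The median was -0.19, -0.17, -0.37 and -0.29 in mice 1 to 4, and it lay between -0.30 and -0.17 over the 15 alternatives of the fit. Against vehicle the list's median was -0.07 with EVs and 0.15 with SFs. Summed over the list, the EV libraries held 10629 to 13459 CPM and the SF libraries 12845 to 15990 CPM, ranges that overlap, and in each mouse the EV library was the lower.

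Sftpa1, surfactant protein A, an opsonin of the alveolar lining, had 1209, 1143, 1082 and 1171 CPM with EVs and 1362, 1373, 1460 and 1733 CPM with SFs. Its groups did not overlap (log2 -0.36, SE 0.0851), but its adjusted p was 0.248 by edgeR. Lamp3, a protein of the lamellar bodies in which surfactant is stored, and Lrrk2, a kinase found on them, stood at log2 differences of -0.39 (SE 0.108, adjusted p = 0.36 by edgeR) and -0.41 (SE 0.105, adjusted p = 0.356 by edgeR). Both were lower in 4 of 4 mice. The Lrrk2 difference ranged from -0.08 in mouse 2 to -0.87 in mouse 4.

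Sftpc, surfactant protein C and the most specific AT2 marker, had 4465, 3919, 3407 and 4720 CPM with EVs and 5631, 4661, 4547 and 5679 CPM with SFs. It was lower with EVs in each mouse by a similar amount (log2 -0.33, -0.25, -0.42 and -0.27), yet its fitted SE was 0.33 (log2 -0.32, adjusted p = 0.999 by edgeR). The 16-library fit also holds the vehicle-treated library of mouse 1, where Sftpc was at 665 CPM, against 4880, 5031 and 6903 CPM in the other vehicle-treated libraries. With only the 8 libraries compared, edgeR's adjusted p for Sftpc was 0.0836 at the same difference. Over 15 alternatives the difference lay between -0.40 and -0.18, and Sftpc was called in 0 of them. It was smallest with library depth as a covariate (adjusted p = 0.999 by edgeR).

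The other surfactant proteins differed less. Sftpb, which is needed to form the surfactant film, stood at 3755 ± 372 CPM with EVs and 3936 ± 354 CPM with SFs, a log2 difference of -0.07 with a 95% interval of -0.24 to 0.10. Sftpd, a collectin, was at log2 -0.19 (SE 0.093, adjusted p = 0.979 by edgeR). Napsa and Ctsh, the proteases that process surfactant proteins, stood at -0.15 and -0.14, and Hopx, which is also an AT1 marker, at 0.00 with an interval of -0.28 to 0.28. The differences of the 10 markers thus ran from -0.45 to 0.00.

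**Figure D3:**
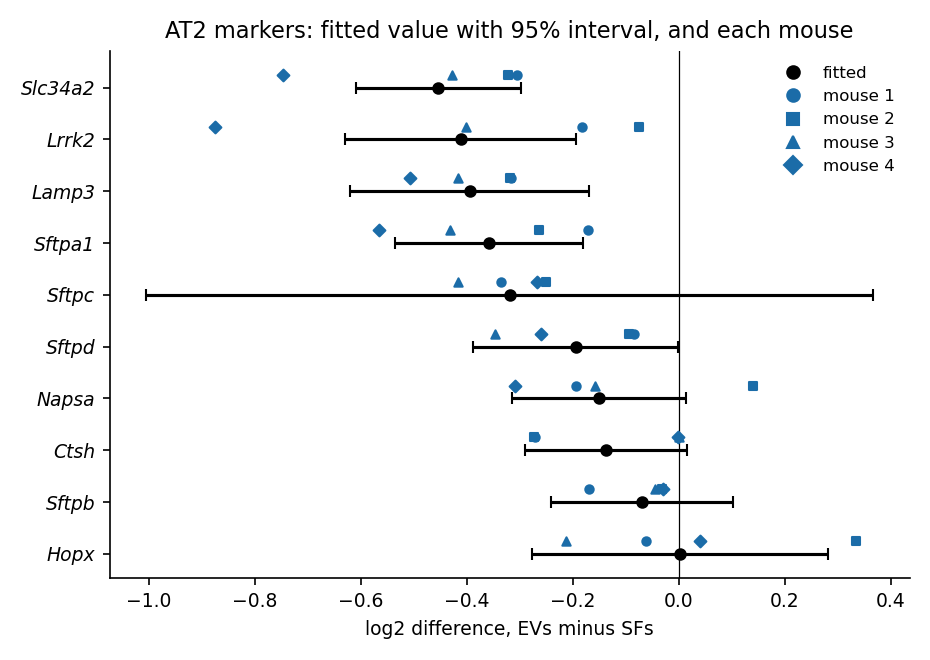
The log2 difference of EVs minus SFs (x axis) is shown for the 10 AT2 markers as the fitted value with its 95% interval in black and as the ratio within each mouse in blue. The fitted values run from -0.45 for Slc34a2 to 0.00 for Hopx, and the interval of Sftpc is the widest.

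The genes with the next smallest p in the downward direction, none of them called, follow here and with the gene lists they belong to. Lyz2, a lysozyme of AT2 cells and macrophages, had 278, 213, 177 and 210 CPM with EVs and 358, 234, 272 and 339 CPM with SFs (log2 -0.47, SE 0.0879, adjusted p = 0.0695 by edgeR). It was lower in every mouse, and the groups overlapped. Over 15 alternatives it was called in 3, with a log2 difference between -0.57 and -0.40. Its adjusted p by edgeR ran from 0.00972, without the SF library of mouse 2, to 0.999, without mouse in the model. Without the EV library of mouse 2 it was 0.156. Its paralog Lyz1 is nearly identical, so its counts are uncertain. Lyz2 with EVs was at the level of vehicle (220.3 ± 30.4 CPM, log2 -0.01), whereas with SFs it was above it (log2 0.46, adjusted p = 0.0295 by edgeR, called in 9 of 13 alternatives).

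Cd36, a fatty acid transporter, stood at 487 ± 66.9 CPM with EVs and 619 ± 87.9 CPM with SFs (log2 -0.34, adjusted p = 0.17 by edgeR). Scd1, which desaturates fatty acids, was at 2552 ± 306 and 3243 ± 393 CPM (log2 -0.35, adjusted p = 0.207 by edgeR), and Soat1, which esterifies cholesterol, at 109 ± 10.1 and 139 ± 6.8 CPM (log2 -0.35, adjusted p = 0.133 by edgeR), with no overlap for Soat1. Lgi3, a secreted leucine-rich repeat protein, was at log2 -0.44 (adjusted p = 0.133 by edgeR). It was also below vehicle with EVs (log2 -0.62, adjusted p = 0.000955), while with SFs its difference from vehicle was -0.18 (adjusted p = 0.663). Spink5, a serine protease inhibitor, had 28.9, 17.5, 15.7 and 24.4 CPM with EVs and 37.5, 32.4, 36.8 and 37.2 CPM with SFs, a log2 difference of -0.77 (SE 0.156, adjusted p = 0.132 by edgeR). All of these genes were lower with EVs in 4 of 4 mice.

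Genes of fatty acid and phospholipid synthesis mostly had values below 0, unlike those of sterol synthesis. Of the 22 in the former list, 17 had values below 0 and 7 were lower in all 4 mice (all genes, 8.31%). Their median was -0.10, and 5 had an unadjusted p under 0.05, all below 0. Besides Scd1 they include Lpcat1, which remodels phosphatidylcholine into its surfactant form, with 381, 377, 293 and 348 CPM with EVs and 426, 426, 393 and 502 CPM with SFs. The Lpcat1 groups did not overlap (log2 -0.32, adjusted p = 0.299 by edgeR). The 22 genes of sterol synthesis and uptake had a median of 0.03 and 14 of them were above 0. Pltp, a phospholipid transfer protein, had the largest positive value of the lipid export list (log2 0.45, adjusted p = 0.656 by edgeR), with EV values of 86.2 to 98.3 CPM and SF values of 58.4 to 81.6 CPM.

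Genes of glutathione synthesis and the NRF2 antioxidant program had small values below 0 in 19 of 22 cases (median -0.10), 9 of them in all 4 mice, and 4 had an unadjusted p under 0.05. Slc7a11, the cystine importer that supplies glutathione synthesis, had 157, 109, 151 and 123 CPM with EVs and 184, 155, 182 and 183 CPM with SFs (log2 -0.39, SE 0.077, adjusted p = 0.121 by edgeR). Against vehicle (128 ± 15.3 CPM) it was higher with SFs (log2 0.47, adjusted p = 0.00648), and with EVs it stood at 0.08 (adjusted p = 0.827). Gclc, the catalytic subunit of the first enzyme of glutathione synthesis, had 1212, 1031, 1044 and 1297 CPM with EVs and 1551, 1355, 1243 and 1612 CPM with SFs (log2 -0.33, SE 0.0686, adjusted p = 0.133 by edgeR). Each was lower with EVs in 4 of 4 mice. Of 18 genes of xenobiotic metabolism 12 had values below 0 (median -0.12), with Aox3 called and the carboxylesterase Ces1g at log2 -0.55 (SE 0.142, adjusted p = 0.356 by edgeR).

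Airway secretory genes were also at lower values with EVs. Of the 10 tested, 9 had values below 0, 6 in all 4 mice, with a median of -0.22 (-0.14, -0.21, -0.24 and -0.06 by mouse) and 0 calls, and 3 had an unadjusted p under 0.05. The median was -0.14 without mouse 2 and -0.11 without the EV library of mouse 2 alone. Gsta3, a glutathione transferase, stood at log2 -0.27 (SE 0.106), Aldh1a1, a retinal dehydrogenase, at -0.22 (SE 0.0915), and Adh7, an alcohol dehydrogenase, at -0.25 (SE 0.108). Scgb1a1, the club cell secretoglobin, was more variable, with 1004, 883, 1389 and 794 CPM with EVs and 915, 1675, 1236 and 977 CPM with SFs, higher with EVs in 2 mice and lower in the other 2. Against vehicle the list's median was -0.45 with EVs and -0.28 with SFs.

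Basal cell genes differed little between the fractions. Aqp3, a glycerol channel, had 222, 263, 237 and 89.9 CPM with EVs and 249, 223, 238 and 85.9 CPM with SFs, and Krt5, the basal keratin, had 889, 738, 838 and 345 CPM against 840, 872, 953 and 298 CPM. Mouse 4 had the lowest level of both genes with EVs and with SFs. The log2 differences were 0.02 (95% interval -0.15 to 0.20) and -0.03 (-0.22 to 0.17). Both were lower than vehicle with each fraction, Aqp3 by -0.67 with EVs (adjusted p = 0.000115 by edgeR) and -0.69 with SFs (8.83e-05), and Krt5 by -0.70 (0.000432) and -0.68 (0.000661). Krt15, a further basal keratin, stood at -0.72 with EVs and -0.91 with SFs, and at 0.19 between the fractions (interval -0.02 to 0.41). The median of the 9 basal genes tested was 0.02.

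Markers of transitional alveolar cells, the intermediate between AT2 and AT1 cells in repair, mostly had values above 0. Of 15 genes 14 had values above 0, with a median of 0.16 (0.10, 0.12, 0.09 and 0.26 by mouse), 6 were higher in all 4 mice (all genes, 7.9%), 0 were called, and 4 stood at an unadjusted p under 0.05. Clu, a secreted chaperone, had 2838, 3761, 3863 and 4257 CPM with EVs and 2489, 3166, 3057 and 3033 CPM with SFs (log2 0.31, SE 0.0982, adjusted p = 0.666 by edgeR). Ndrg1, a stress- and hypoxia-induced gene, had 70.3, 74.1, 70.5 and 78.1 CPM against 54.9, 52.5, 59.2 and 68.8 CPM, without overlap (log2 0.31, adjusted p = 0.49 by edgeR), and Krt7, a simple keratin, stood at 0.19 (interval -0.01 to 0.40). Without the EV library of mouse 2 the list's median was 0.10. Against vehicle it was 0.00 with EVs and -0.15 with SFs. The 9 AT1 genes had a median of -0.03, with Cav1, the caveolae protein, at 0.30 (adjusted p = 0.487 by edgeR, higher in 4 of 4 mice) and Pdpn, a membrane glycoprotein, at 0.26 (adjusted p = 0.979, higher in 3 of 4).

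**Figure D4:**
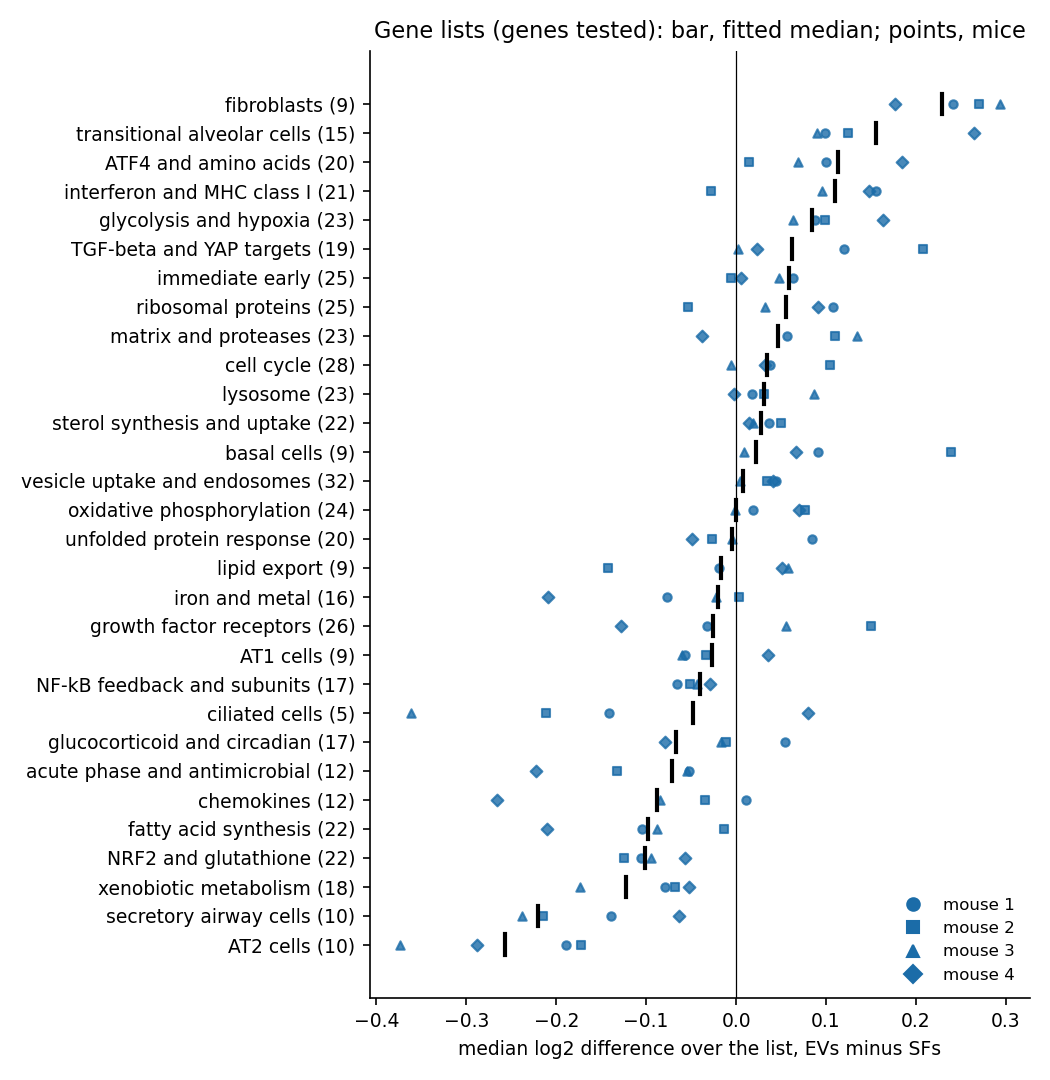
The median log2 difference of EVs minus SFs over each gene list with at least 5 genes tested, other than the mitochondrial genome (x axis), is shown from the fit as a black bar and from each mouse as a blue symbol, with the number of genes tested in brackets. AT2 cells (-0.26) and secretory airway cells (-0.22) lie lowest with all 4 mice below 0, and fibroblasts (0.23) and transitional alveolar cells (0.16) lie highest with all 4 mice above 0.

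Several acute-phase genes and the chemokine Cxcl5 were higher than vehicle with each fraction. Of the 12 acute-phase and antimicrobial genes tested, 7 were called higher with EVs than with vehicle (all genes, 0.538%) and 6 with SFs (all genes, 0.154%), and Retnla, a resistin-like protein, was called lower with each. Lcn2, Chil1 and Saa3 are among those called higher with both, and these 3 and Cxcl5 are named here for their small p against vehicle. Lcn2, lipocalin 2, which binds bacterial siderophores, had 142, 92.8, 107 and 118 CPM with EVs, 154, 104, 134 and 157 CPM with SFs and 37.9 ± 8.27 CPM with vehicle. It rose by log2 1.64 with EVs (adjusted p = 6.69e-07 by edgeR) and 1.91 with SFs (adjusted p = 4.57e-08). Between the fractions the difference was -0.28 (SE 0.127, adjusted p = 0.979 by edgeR), with EVs the lower in all 4 mice.

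Chil1, a chitinase-like protein, had 474, 352, 371 and 421 CPM with EVs, 535, 428, 456 and 541 CPM with SFs and 203 ± 28.6 CPM with vehicle. It rose by 0.99 with EVs (adjusted p = 1.42e-07 by edgeR) and by 1.28 with SFs (1.32e-09), and the fractions differed by -0.28 (SE 0.0747, 95% interval -0.44 to -0.13, adjusted p = 0.356). Saa3, an acute-phase apolipoprotein, had 10.1, 4.14, 7.86 and 6.03 CPM with EVs and 10.5, 11.7, 13.4 and 15.2 CPM with SFs, without overlap, and 0.707 ± 0.328 CPM with vehicle. Its difference between fractions was -0.80 (SE 0.197, adjusted p = 0.294 by edgeR), near 0 in mouse 1 (-0.05) and between -0.76 and -1.50 in the others. Cxcl5, a neutrophil-attracting chemokine, stood at 214 ± 24.3 CPM with EVs, 240 ± 20.5 CPM with SFs and 99.3 ± 18.9 CPM with vehicle, and its difference between the fractions had an interval of -0.40 to 0.04.

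Over the whole list of 12 acute-phase and antimicrobial genes tested, 8 had values below 0 between the fractions (median -0.07), 5 in all 4 mice, and 4 had an unadjusted p under 0.05. Without the EV library of mouse 2 the median was -0.15. The 12 chemokines had a median of -0.09, or -0.036 without the SF library of mouse 2. Cxcl15, lungkine, made by the lung epithelium, had 1936, 1504, 1560 and 1851 CPM with EVs and 2264, 1969, 1956 and 2506 CPM with SFs, without overlap (log2 -0.34, adjusted p = 0.248 by edgeR). Ccl2, which attracts monocytes, was higher with EVs in 4 of 4 mice (log2 0.28, adjusted p = 0.979). NF-kB subunits and feedback inhibitors had a median of -0.04 over 17 genes, with Sod2, the mitochondrial superoxide dismutase, at -0.27 (adjusted p = 0.713, no overlap) and Tnfaip3, the inhibitor A20, at -0.19 (adjusted p = 0.989). Interferon and MHC class I genes had values above 0 in 20 of 21 cases (median 0.11), but 1 of them was higher in all 4 mice, and H2-D1, a class I heavy chain, stood at 0.09 (interval -0.06 to 0.24).

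**Figure D5:**
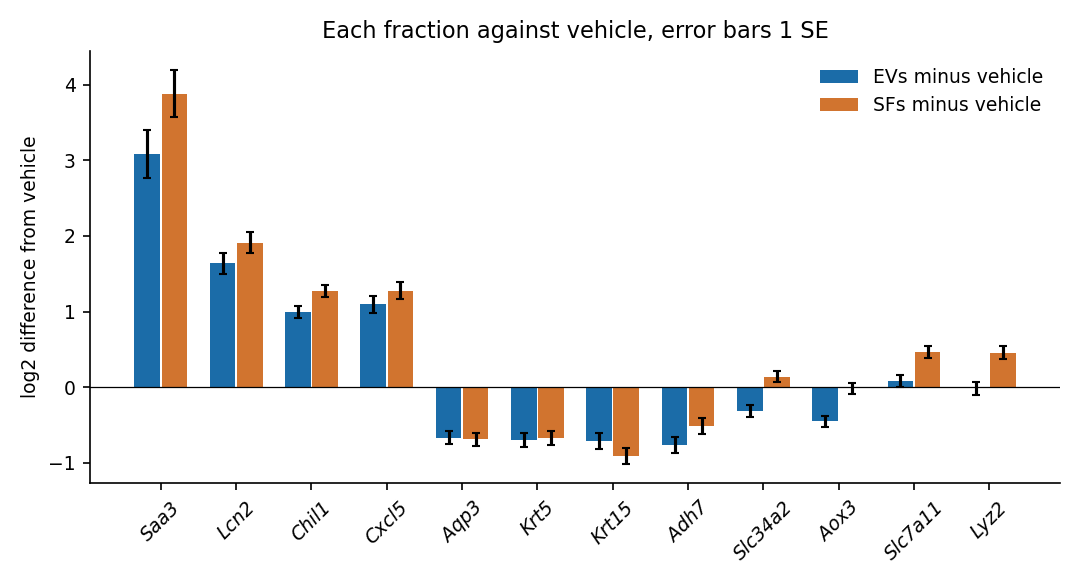
The log2 difference from vehicle (y axis) is shown for 12 genes with EVs in blue and with SFs in orange, with error bars of 1 SE. Saa3, Lcn2, Chil1 and Cxcl5 stand above 0 and Aqp3, Krt5, Krt15 and Adh7 below 0 with both fractions, while Slc34a2 and Aox3 lie below 0 with EVs and Slc7a11 and Lyz2 above 0 with SFs.

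Of the genes with the smallest p in the upward direction, none besides mt-Rnr2 was called by the edgeR fit of 16 libraries. The small mitochondrial ribosomal RNA, mt-Rnr1 (12S), had 638, 450, 538 and 582 CPM with EVs and 464, 346, 433 and 436 CPM with SFs (log2 0.39, SE 0.0857, adjusted p = 0.174 by edgeR). It was higher with EVs in 4 of 4 mice. DESeq2 and voom on the 16 libraries called mt-Rnr1, as did edgeR with thinned counts. The 12 protein-coding mitochondrial genes tested had a median of 0.01, with 0.37, -1.68, 0.03 and 0.29 in mice 1 to 4. The median was 0.20 without mouse 2 and 0.17 without its EV library alone, and over the 15 alternatives it ran from -0.17 to 0.20. Their summed level was 15258 CPM in the EV-treated library of mouse 2 against 35225 to 41539 CPM in the other EV libraries and 26256 to 33557 CPM with SFs. mt-Co1, a subunit of cytochrome oxidase, had 7094 CPM in that library and 13692 to 15822 CPM in the other EV libraries, and its difference was 0.10 (interval -0.22 to 0.42). Without that library the rRNA difference was as large (mt-Rnr2 log2 0.54, adjusted p = 0.0478 by edgeR). Without the SF library of mouse 2 it was 0.47. mt-Co2 and mt-Co3, the other cytochrome oxidase genes of this genome, varied several-fold between mice, with SF values of 35, 234, 88.5 and 53.8 CPM for mt-Co2, and stood at -0.79 (SE 0.528) and -0.85 (SE 0.456). The 24 nuclear genes of oxidative phosphorylation had a median of 0.00, 12 above and 12 below.

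Itgb8, an integrin subunit that activates latent TGF-beta, had 3.38, 2.53, 4.41 and 2.85 CPM with EVs and 0.784, 0.559, 1.15 and 0.873 CPM with SFs, the largest fold between the fractions among the genes named (log2 1.88, SE 0.454, adjusted p = 0.265 by edgeR), with no overlap but at a low level. Cdh11, a mesenchymal cadherin, had 16.2, 21.4, 19.2 and 18.4 CPM against 10.4, 5.03, 10.2 and 13.1 CPM (log2 0.88, SE 0.236, adjusted p = 0.359 by edgeR), and exceeded vehicle with EVs (log2 1.14, adjusted p = 0.022), a call made in 6 of 12 alternatives. Pcolce, which enhances procollagen processing, Efemp2, an elastic fibre protein, Tspan4, a tetraspanin, Atf6b, an endoplasmic reticulum stress sensor, and Bysl, a ribosome assembly factor, stood between 0.30 and 0.43. Each was higher with EVs in 4 of 4 mice, and DESeq2 on the 16 libraries called Pcolce.

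Fibroblast markers mostly had values above 0. Of the 9 fibroblast markers tested, 8 had values above 0 and 5 were higher in all 4 mice, with a median of 0.23 (0.24, 0.27, 0.29 and 0.18 by mouse) and 0 calls, and 3 had an unadjusted p under 0.05. Their summed level was 3162 to 3745 CPM with EVs, 2602 to 3509 CPM with SFs and 2239 to 3111 CPM with vehicle, and in each mouse the EV library was the higher. Col1a2, a chain of type I collagen, had 963, 1246, 1111 and 1219 CPM against 761, 1031, 935 and 1078 CPM (log2 0.26, SE 0.0931, adjusted p = 0.88 by edgeR), and Mmp2, gelatinase A, stood at 0.23 (SE 0.0992). Col1a1, the partner chain, was at 0.33 and Timp1, a metalloproteinase inhibitor, at 0.47, with 28.8 to 32.7 CPM against 16.8 to 25.2 CPM and no overlap, neither called. The fibroblast score of each library, the mean log2 level of these markers, was then used as a covariate, a step added after these values had been seen. With it the AT2 median was -0.24, the secretory airway median -0.13 and the xenobiotic metabolism median -0.035. That of the fibroblast markers themselves was -0.018, near 0 by construction because the score is made from them. Slc34a2 stood at -0.46 (adjusted p = 0.172 by edgeR), Aox3 at -0.50 (0.103) and mt-Rnr2 at 0.49 (0.172), and 0 genes were called, with 816 at an unadjusted p under 0.05. The part of the fibroblast markers in the other differences was not tested further.

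Cell cycle genes and growth factor receptors differed little as lists, and glycolysis and hypoxia genes had small values mostly above 0. The 28 cell cycle genes had a median of 0.03, with Mki67, a proliferation marker, at 621 ± 44.2 CPM with EVs and 671 ± 34.2 CPM with SFs (interval -0.29 to 0.06) and Ccnd1, cyclin D1, at 965 ± 26.3 and 894 ± 39.6 CPM (interval -0.03 to 0.25). Of 26 growth factor receptors the one with the smallest p was Fgfr2, the receptor of FGF7 and FGF10 in the lung epithelium, with 173, 173, 173 and 194 CPM with EVs and 200, 221, 199 and 259 CPM with SFs (log2 -0.29, SE 0.0733, adjusted p = 0.325 by edgeR, no overlap). Glycolysis and hypoxia genes had values above 0 in 19 of 23 cases, 10 in all 4 mice (all genes, 7.9%), and 0 were called. Their median was 0.08 (0.09, 0.10, 0.06 and 0.16 by mouse). Among them were P4ha1, a collagen prolyl hydroxylase subunit (0.21), and Pfkl, a phosphofructokinase (0.20). Junb, an immediate early gene, stood at 0.25, higher in 4 of 4 mice and not called (adjusted p = 0.916 by edgeR).

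Medians were 0.11 for ATF4 and amino acid genes (16 of 20 above 0), 0.06 for ribosomal proteins, 0.06 for TGF-beta and YAP targets and 0.06 for immediate early genes. Those of matrix and protease genes (0.05), lysosomal genes (0.03), iron and metal genes (-0.02), lipid export genes (-0.02), growth factor receptors (-0.03), ciliated cell genes (-0.05), and glucocorticoid and circadian genes (-0.07) were nearer to 0 than the AT2 value. The unfolded protein response had a median of 0.00, with Hspa5, the chaperone BiP, at 0.07 (interval -0.11 to 0.26). None of the genes of these lists was called. The 32 genes of vesicle uptake and endosomes, listed because 1 fraction was vesicles, had a median of 0.01. All 32 intervals lay within 1.5-fold (all genes, 75.6%). So did every interval of the cell cycle, oxidative phosphorylation and ribosomal protein lists, among others. Anxa2, a membrane-binding annexin, stood at 0.11 and Rab27a, a GTPase of vesicle secretion, at -0.22 (adjusted p = 0.957 by edgeR). Slc39a8, a zinc and manganese importer, was at -0.24 (adjusted p = 0.54). The 2 mesothelial genes tested stood at 0.18 and 0.23, the 3 macrophage genes had a median of 0.00 (-0.15 without the EV library of mouse 2), and Vwf, the only endothelial gene, stood at 0.68 on a summed level of 5.94 CPM or less, and at -0.028 without the EV library of mouse 2.

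The libraries treated with OGN entered the fit, and so its estimate of the spread, but not the contrast itself. Of the 173 genes called higher with OGN than with vehicle, 95 were higher and 78 lower with EVs than with SFs. Of the 143 called lower with OGN, 64 were higher and 79 lower with EVs. Between the fractions 0 and 1 of them were called (all genes, 0.0256%). An unadjusted p under 0.05 was found for 17 higher and 16 lower of the 173, and for 9 higher and 26 lower of the 143. Over all genes these shares were 2.31% higher and 2.69% lower. The median difference was 0.03 for the former set and -0.04 for the latter. Ogn itself, a small leucine-rich proteoglycan, had 11.7 ± 3.94 CPM with EVs and 9.30 ± 2.48 CPM with SFs (log2 0.29, adjusted p = 0.999 by edgeR).

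In the CCL206 fibroblasts of the same cultures EVs and SFs differed in 3380 of 11689 genes (28.9%). The CCL206 EV libraries stood apart among themselves. Summed ribosomal protein genes held 19901, 38936, 23012 and 44963 CPM with EVs in mice 1 to 4 against 18267 to 19475 CPM with SFs, and the mitochondrial genome held 26830, 11779, 8165 and 9458 CPM against 20772 to 24932 CPM. The part of these shifts in the count was not tested. The test of the difference between the populations called 134 of 11805 genes (1.14%), and 3325 (28.2%) had an unadjusted p under 0.05. Among the genes named here it called Lpcat1, at log2 -0.32 in Epcam+ cells and 0.26 in CCL206 cells (difference -0.56, adjusted p = 0.0497). The count is not stable: it was 0 with DESeq2's size factors (RLE) in place of TMM, 0 without mouse 2, mouse 3 or mouse 4, and 1567 without mouse 1. Lpcat1 was thus not called in the fits that gave 0. For Slc34a2 the CCL206 value was -0.11 (test of the difference, adjusted p = 0.191), for Aox3 -0.41 (0.961) and for mt-Rnr2 0.30 (0.393). The median log2 difference of EVs against SFs over the AT2 markers was 0.42 in the CCL206 libraries. Summed over the list, these held 3139, 3950, 2820 and 3761 CPM with EVs in mice 1 to 4. With SFs they held 3309, 2195, 2585 and 1597 CPM. The source of these transcripts in libraries of a fibroblast line, and its part in the Lpcat1 difference, was not tested.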

How the data were processed

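RNA of Epcam+ cells and CCL206 fibroblasts was sequenced in 32 libraries (8 groups of 4 mice). Per the labels and methods, the authors trimmed reads with Trimmomatic (version 0.30), aligned them to the mouse genome and deposited raw counts per gene, without normalization, for 11818 genes. The labels also list DESeq2 (version 1.34.0). The aligner, the counter and the annotation release are not given in the sources used here. The labels name GRCm39 and the methods GRCm38 as the genome, and which of them the counts rest on was not settled.

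The 16 Epcam+ libraries were fitted with edgeR (version 4.0.16, R version 4.3.3) after filterByExpr and TMM, with terms for treatment and mouse. SE was derived from the log2 difference and its F value. Samples with the same mouse number came from the same animal, and their residual profiles correlated more (r 0.383, 0.174, 0.208 and 0.194) than those of different mice (-0.189 to 0.00327). No libraries were identical. The population test used all 32 libraries with mouse within population. Depth ranged from 1805914 to 17675454 counts per library in the 8 compared. The fits were tested on simulated data.

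Named were the 10 genes of smallest p in each direction, the 3 of smallest p either way against vehicle, up to 4 genes per list (the 2 with the smallest p and the 2 with the highest level), and Epcam, Ogn, Sftpc, Lcn2, Saa3 and Chil1. The other AT2 markers were added after their values were seen, so that each marker is accounted for. Some genes that this rule names are not reported here. Members and lists were chosen with earlier results of these data known. Alternatives were no mouse term, RLE size factors, other filters, mice or libraries left out, 8 libraries only, thinned counts, a length correction, DESeq2 (version 1.42.0) and limma (version 3.58.1). Transcript lengths came from GENCODE and matched 98.9% of genes. Promoters came from RefSeq. Figures were drawn with matplotlib (version 3.10.9).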

Additional observations from a re-analysis of the deposited data

Results flagged for a closer look

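In groups of 4 libraries, 1 library stood apart from the other 3 by Dixon's ratio of gap to range in 7 of 167 groups checked for the genes named and for library totals and marker sums, where chance gives about 1 in 20 (8.35). In mouse 2, Slc7a11 (155 CPM) and Spink5 (32.4 CPM) were lowest of the SF libraries, and Pcolce (336 CPM) was highest of the EV libraries. Bysl was highest in mouse 3 with SFs (62.8 CPM) and Aqp3 lowest in mouse 4 with SFs (85.9 CPM), the mouse in which Aqp3 was also lowest with EVs and with vehicle. Fgfr2 was highest in mouse 4 (194 CPM) and Aldh1a1 in mouse 1 (333 CPM) with EVs.

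The difference between EVs and SFs was not the same in both populations for Lpcat1 by the interaction test of edgeR (log2 difference between populations -0.56, adjusted p = 0.0497), with -0.32 in Epcam+ cells, lower in 4 of 4 mice, and 0.26 in CCL206 cells. No gene, Lpcat1 included, was called by this test with RLE size factors, without mouse in the model, with the 16 EV and SF libraries alone, or without mouse 2, mouse 3 or mouse 4.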

How the results depend on the processing

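The 3 calls became 0 without the replicate block (mouse left out of the model; 403 genes at an unadjusted p under 0.05), 0 to 2 with 1 mouse left out, 1 with the 8 libraries compared alone, 0 with the fibroblast score as a covariate, 0 with an absolute log2 difference above 1 also asked for, 25 and 32 with DESeq2 on 16 and 8 libraries and 17 with voom; the cause was not tested. The count was 3 or 4 with RLE size factors, other filters, library depth as a covariate or an adjusted p under 0.1, each holding all 3 genes. It was also 3 with thinned counts, where mt-Rnr1 replaced Aox3 (adjusted p = 0.085), and with the length trend removed, where Lyz2 replaced mt-Rnr2 (adjusted p = 0.0988), and it was 2 and 3 without the SF and the EV library of mouse 2.

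The 134 genes that differed between populations became 0 without the replicate block, with RLE size factors or with the 16 EV and SF libraries alone, 222 with at least 10 counts in every library, 1360 with DESeq2, and between 0 and 1567 with 1 mouse left out.

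Differences near 0 changed sign. With the length trend removed Aqp3 stood at -0.0081 and Hopx at -0.013, with depth as a covariate Aqp3 at -0.043 and Epcam at 0.022, with the fibroblast score Epcam at 0.063 and Lyz2 with EVs against vehicle at 0.035, and with 8 libraries alone Hopx at -0.0077. With 1 mouse or library left out, Aqp3 ranged from -0.039 to 0.095, Krt5 from -0.11 to 0.055, Hopx from -0.11 to 0.083, Scgb1a1 from -0.36 to 0.0052, Lyz2 with EVs against vehicle from -0.077 to 0.055 and Aox3 with SFs against vehicle from -0.036 to 0.0089. Depth limits genes of low level most: the median SE was 0.20 below and 0.10 above the median level.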
